A study of Mus musculus with 6 samples.

Results

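The 8 genes described here, *Lpl*, *Lmf1*, *Gpihbp1*, *Angptl4*, *Angptl8*, *Angptl2*, *Cd36* and *Vldlr*, serve the uptake of circulating triglyceride and were chosen by symbol from the 55401 genes of the count data, and all 8 passed the filter on low counts. Their RNA was measured by bulk RNA-seq of total RNA from subcutaneous white adipose tissue (scWAT) of 6 male mice, 8 weeks old and housed at room temperature. The 3 YT-FF mice (*Yap* fl/fl, *Taz* fl/fl, no Cre) are called WT in the sample labels, and the 3 YT-AKO mice carried the same floxed alleles together with *Adipoq* Cre, whose promoter is that of an adipocyte gene, so that other cells of the tissue are not targeted. The comparison asks how the triglyceride uptake genes of scWAT differ in RNA level when *Yap* and *Taz* are targeted in adipocytes. The labels do not say that the libraries came from separate litters or days, so p-values measure the spread between these 6 libraries.

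Lipoprotein lipase (LPL, gene *Lpl*) hydrolyses the triglyceride of chylomicrons and very low density lipoproteins at the capillary wall and sets how much fatty acid a fat depot takes from blood. Adipocytes make the enzyme, LMF1 helps it to fold in the endoplasmic reticulum, and GPIHBP1 on capillary endothelial cells carries it to the vessel lumen. Angiopoietin-like proteins such as ANGPTL4 and ANGPTL8 set LPL activity according to feeding and fasting, CD36 takes up the fatty acids that are released, and the VLDL receptor binds triglyceride-rich lipoproteins.

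Sequence of 2 genes whose RNA rose is shown first, so that their promoters can be read for the words that TEAD and C/EBP factors bind. Of the 8 genes, 5 had a promoter in the RefSeq table for GRCm38.p6 used here, namely *Angptl8*, *Lmf1*, *Angptl2*, *Cd36* and *Vldlr*. The sequence upstream of *Angptl8*, on the plus strand at chr9:21835260-21835509, lies within the span of *Dock6*, which is transcribed from the opposite strand. For *Lmf1*, the bases of the promoter that lie outside the annotated gene are on the plus strand at chr17:25578924-25579084. Both are written 5′ to 3′, and the capitals mark the C/EBP word TTGCNNAA, found in *Angptl8* on the opposite strand. The *Lmf1* stretch holds neither of the words searched.
Angptl8: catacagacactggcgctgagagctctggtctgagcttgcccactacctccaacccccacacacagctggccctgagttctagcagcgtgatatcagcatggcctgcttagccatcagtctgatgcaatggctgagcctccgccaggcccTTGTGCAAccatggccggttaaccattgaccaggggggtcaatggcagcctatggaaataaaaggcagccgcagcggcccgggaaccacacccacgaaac
Lmf1: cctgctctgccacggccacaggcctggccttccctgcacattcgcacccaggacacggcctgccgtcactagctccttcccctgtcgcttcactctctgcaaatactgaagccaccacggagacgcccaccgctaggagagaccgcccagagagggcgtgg

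On both strands of the 250 bases before each start, the word GGAATG of the TEAD factors, the DNA-binding partners of YAP and TAZ, was not found in any of the 6 promoters of the 5 genes, *Vldlr* having 2 starts. It was present in 12.6% of 32851 mouse promoters of the same length. The word TTGCNNAA of the C/EBP factors was found in *Angptl8*, in 1 of the 2 *Vldlr* promoters and in 9.56% of all promoters. A match describes letters and not a bound site.

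The libraries held 17740987 to 21838493 counted fragments, and 3 counts, the smallest amount treated as measurable, were 0.128 to 0.177 CPM (counts scaled by library total and TMM factor). Of the targeted genes, *Yap1* fell in the libraries labelled YT-AKO (log2 fold change -0.98, SE 0.17, adjusted p = 0.0179). *Wwtr1*, which encodes TAZ, was higher (0.89, SE 0.18, adjusted p = 0.0220, both edgeR), so its RNA did not fall with the label. The counts cover the whole gene in all cells of the tissue and read neither the floxed part nor adipocytes on their own. They cannot tell whether *Taz* was deleted in adipocytes. The library labelled YT-AKO 2 stood apart from the other libraries of its group, and fold changes over all genes were lower for longer genes (Spearman rho across genes -0.376, and -0.283 without YT-AKO 2). TPM (counts divided by exon length and scaled to a common sum) are used here to compare genes with each other. Between the groups TPM is only another scaling of the libraries, which moved every log2 difference by -0.68 and put 54.5% of all tested genes lower and 7.52% higher without overlap. Summed CPM of 6 adipocyte markers, *Adipoq* among them, was 11131 to 13116 in YT-FF and 26993 to 59743 in the libraries labelled YT-AKO, where *Cfd* (log2 fold change 2.39) carried most of the sum and *Adipoq* itself (0.43, adjusted p = 0.176) did not pass. No adipocyte marker was at 0 in the tissue labelled scWAT.

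Between the groups, 3 of the 8 genes rose in the libraries labelled YT-AKO and 0 fell, at an adjusted p under 0.05 in edgeR's quasi-likelihood test over 16807 genes. At an unadjusted p under 0.05 the counts were again 3 higher and 0 lower, against 22.2% and 18.6% of all genes. *Angptl8*, an insulin-responsive modulator of LPL, rose 8.47-fold, the endothelial LPL carrier *Gpihbp1* 2.38-fold and the LPL maturation factor *Lmf1* 2.32-fold. The RNA of the lipase itself, of *Cd36* and of *Vldlr* had log2 fold changes of 0.03, with 95% intervals that included 0. Over all genes tested, 12.6% were called higher and 9.01% lower by the same rule. At an adjusted p under 0.01 with a log2 fold change beyond 1, *Angptl8* was the one member called, where 0.0892% of all genes were called higher and 0.0357% lower. DESeq2, the tool in the submitters' processing notes, called 3 members higher and 0 lower by an adjusted p under 0.05, against 18.1% and 14.3% of all genes. In bulk tissue, a change in the number of cells of a type and a change in RNA per cell cannot be told apart for any of these genes.

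**Figure D1:**
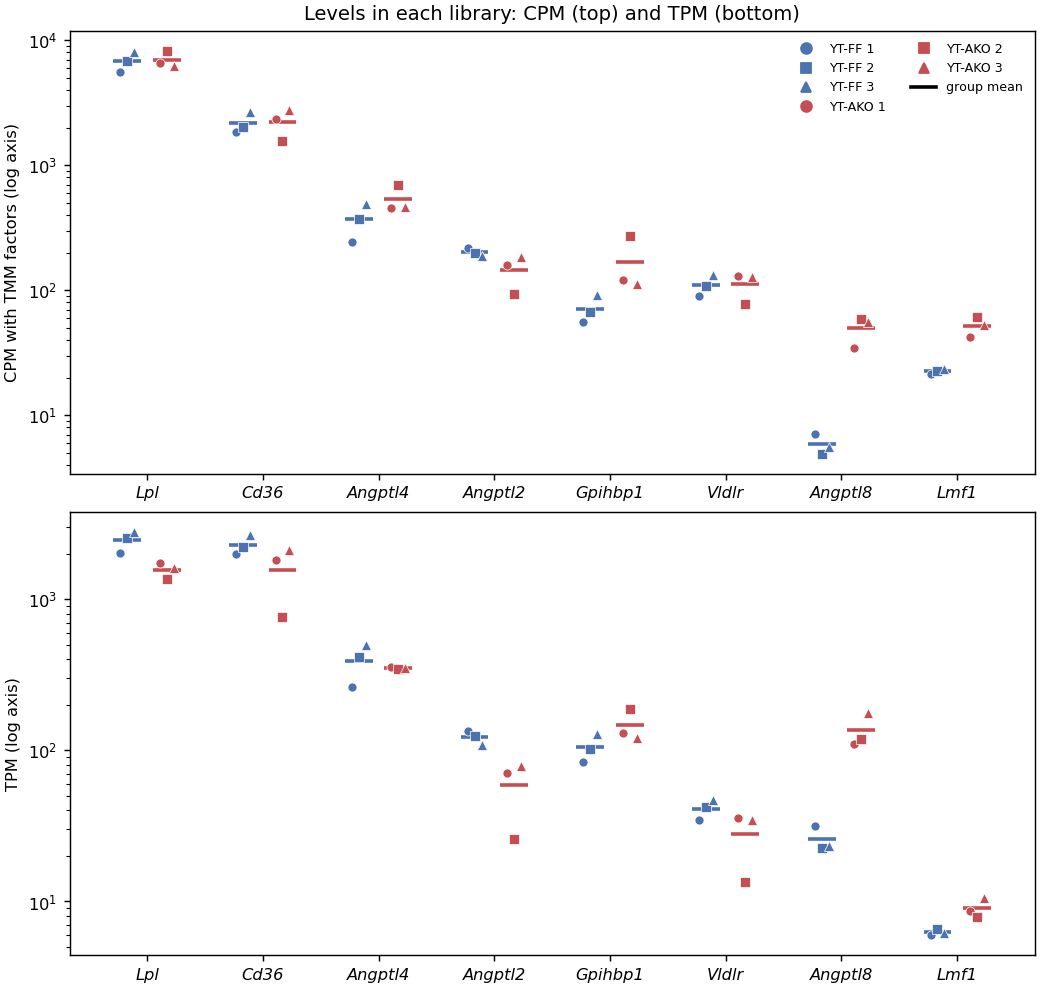
Levels of the 8 genes in each of the 6 libraries, in CPM (top) and TPM (bottom) on log axes, with YT-FF in blue, YT-AKO in red and a horizontal line at each group mean. In CPM *Angptl8*, *Lmf1* and *Gpihbp1* sit higher in all 3 libraries labelled YT-AKO than in any YT-FF library, *Angptl2* sits lower, and the groups of the other 4 genes overlap.

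*Lpl* (ENSMUSG00000015568, chr8:68880491-68907448, plus strand) was, with *Cd36*, at the top of the 8 genes per length. Its level was 5533, 6785 and 8038 CPM in YT-FF 1, 2 and 3 and 6515, 8132 and 6201 CPM in the libraries labelled YT-AKO 1, 2 and 3. The groups overlapped, with means of 6785 ± 1253 and 6949 ± 1036 CPM (SD, n = 3 each). The log2 fold change was 0.03 (SE 0.25, 95% interval -0.54 to 0.61, adjusted p = 0.928, edgeR). With a correction for gene length in the fit on counts, *Lpl* was at 0.51 (adjusted p = 0.247) and did not pass either. Its summed exons span 10478 bases over all annotated isoforms, and 1.40% of the 50-base words in them occur elsewhere in the annotated transcripts.

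*Lmf1* (ENSMUSG00000002279, chr17:25579085-25662826, plus strand), the factor without which newly made LPL stays inactive, had the lowest TPM of the 8 genes. This rests on summed exons of 13589 bases over all annotated isoforms. In mean CPM it was above *Angptl8* in YT-FF (22.4 against 5.87) and near it in the group labelled YT-AKO (52.1 against 49.8). *Lmf1* was at 21.3, 22.7 and 23.3 CPM in YT-FF and at 42.4, 60.9 and 53.1 CPM in the libraries labelled YT-AKO. The YT-FF libraries lay close together and every library labelled YT-AKO was above them (22.4 ± 1.04 against 52.1 ± 9.28 CPM, SD, n = 3 each). *Lmf1* rose by a log2 fold change of 1.22 (SE 0.17, 95% interval 0.81 to 1.62, adjusted p = 0.0171, edgeR). The call was lost with the replicate number as a block (1.20, adjusted p = 0.0584) and without YT-FF 1 or YT-FF 2 (adjusted p = 0.110 and 0.111).

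*Gpihbp1* (ENSMUSG00000022579, chr15:75596628-75599481, plus strand) was at 55.5, 66.4 and 91.3 CPM in YT-FF and at 119.9, 273.5 and 113.0 CPM in the libraries labelled YT-AKO. All 3 libraries labelled YT-AKO were above the YT-FF libraries, and YT-AKO 2 was more than 2 times as high as the other two (71.1 ± 18.4 against 168.8 ± 90.7 CPM, SD, n = 3 each). *Gpihbp1* rose by a log2 fold change of 1.25 (SE 0.37, 95% interval 0.39 to 2.11, adjusted p = 0.0487, edgeR), and by 0.71 (adjusted p = 0.0278) without YT-AKO 2. This call lay at the threshold, and it was lost with limma-voom, library totals alone, the replicate block, the length correction and each YT-FF library left out, with adjusted p from 0.0505 to 0.172. Summed CPM of 8 endothelial markers was 773 to 859 in YT-FF and 745 to 1237 in the libraries labelled YT-AKO, with the highest value in YT-AKO 2, the library in which *Gpihbp1* was highest. Of the 8 endothelial markers 0 were called higher (1 at an unadjusted p under 0.05, 1 in DESeq2) and *Kdr* was called lower (log2 fold change -0.78). *Cldn5* reached 453.7 and *Egfl7* 244.7 CPM in the group labelled YT-AKO, against at most 99.6 and 93.8 in YT-FF. *Pecam1*, *Cdh5* and *Kdr* lay lower and *Cldn5* higher without overlap, beside 25.8% and 25.7% of all tested genes. The other markers overlapped, so the highest sum does not hold for all 8 markers. *Gpihbp1* is set against these markers within each library further on.

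*Angptl8* (ENSMUSG00000047822, chr9:21835510-21837347, plus strand) showed the largest difference of the 8 genes. Its counts were 166, 112 and 109 in YT-FF and 588, 1000 and 950 in the group labelled YT-AKO. In CPM these were 7.08, 4.92 and 5.61 against 34.2, 59.0 and 56.1, so the lowest library labelled YT-AKO was well above the highest YT-FF library. *Angptl8* rose by a log2 fold change of 3.08 (SE 0.27, 95% interval 2.46 to 3.70, adjusted p = 0.00729, edgeR). Over 17 other settings of the fit the log2 fold change stayed between 2.66 and 3.30, and the call was lost only without YT-FF 1 or YT-FF 2 (adjusted p = 0.0790 and 0.0708).

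The gene lies within the span of *Dock6* on the other strand and shares no exon bases with it. Because fragments were counted without regard to strand, unspliced *Dock6* RNA over the *Angptl8* exons cannot be told apart from *Angptl8* RNA. *Dock6* itself was at 1719, 1545 and 1232 counts in YT-FF and at 1107, 899 and 949 counts in the group labelled YT-AKO, and it did not pass the test (log2 fold change -0.24, adjusted p = 0.263). These *Dock6* counts are of its exons, and the part of *Dock6* RNA in the *Angptl8* counts was not tested.

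*Angptl4* (ENSMUSG00000002289, chr17:33773750-33781830, minus strand), the fasting-induced LPL inhibitor of adipose tissue, was at 242.8, 371.6 and 491.1 CPM in YT-FF and at 451.2, 693.8 and 459.0 CPM in the libraries labelled YT-AKO. YT-FF 3 lay above YT-AKO 1 and 3, so the groups overlapped. The log2 fold change of 0.54 (SE 0.30, 95% interval -0.16 to 1.23) did not pass the test (adjusted p = 0.211, edgeR).

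*Angptl2* (ENSMUSG00000004105, chr2:33216069-33247717, plus strand), an angiopoietin-like protein better known for inflammation and matrix signalling than for LPL inhibition, had lower values in the libraries labelled YT-AKO. It was at 218.8, 197.1 and 189.0 CPM in YT-FF and at 160.4, 92.4 and 183.2 CPM in the libraries labelled YT-AKO. The groups did not overlap, by a narrow margin between YT-FF 3 and YT-AKO 3, and YT-AKO 2 was by far the lowest. CPM lay lower without overlap for 25.8% of all tested genes and higher without overlap for 25.7%. The log2 fold change of -0.47 (SE 0.26, 95% interval -1.06 to 0.12) did not pass the test (adjusted p = 0.198, edgeR), and it was -0.23 without YT-AKO 2. *Angptl2* lies within the span of *Ralgps1* on the other strand without shared exon bases, and *Ralgps1*, at 362, 398 and 294 against 208, 189 and 184 counts, did not pass the test (log2 fold change -0.49, adjusted p = 0.0734).

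*Cd36* (ENSMUSG00000002944, chr5:17781690-17888801, minus strand), which takes up long-chain fatty acids at the adipocyte and endothelial surface, was at 1856, 2006 and 2651 CPM in YT-FF. In the libraries labelled YT-AKO it was at 2332, 1562 and 2777 CPM. YT-AKO 2 was the lowest of the 6 libraries and YT-AKO 3 the highest, so the groups overlapped fully. The log2 fold change was 0.03 (SE 0.27, 95% interval -0.60 to 0.67, adjusted p = 0.934, edgeR).

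*Vldlr* (ENSMUSG00000024924, chr19:27216484-27254231, plus strand) was, as *Cd36*, lowest in YT-AKO 2. It was at 90.4, 107.4 and 131.3 CPM in YT-FF and at 129.4, 77.1 and 128.5 CPM in the libraries labelled YT-AKO, and the groups overlapped. The log2 fold change was 0.03 (SE 0.24, 95% interval -0.54 to 0.59, adjusted p = 0.944, edgeR). The intervals of *Lpl*, *Cd36* and *Vldlr* each hold changes of more than 0.5 on the log2 scale in either direction. A change of that size can thus not be excluded for these genes.

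**Figure D2:**
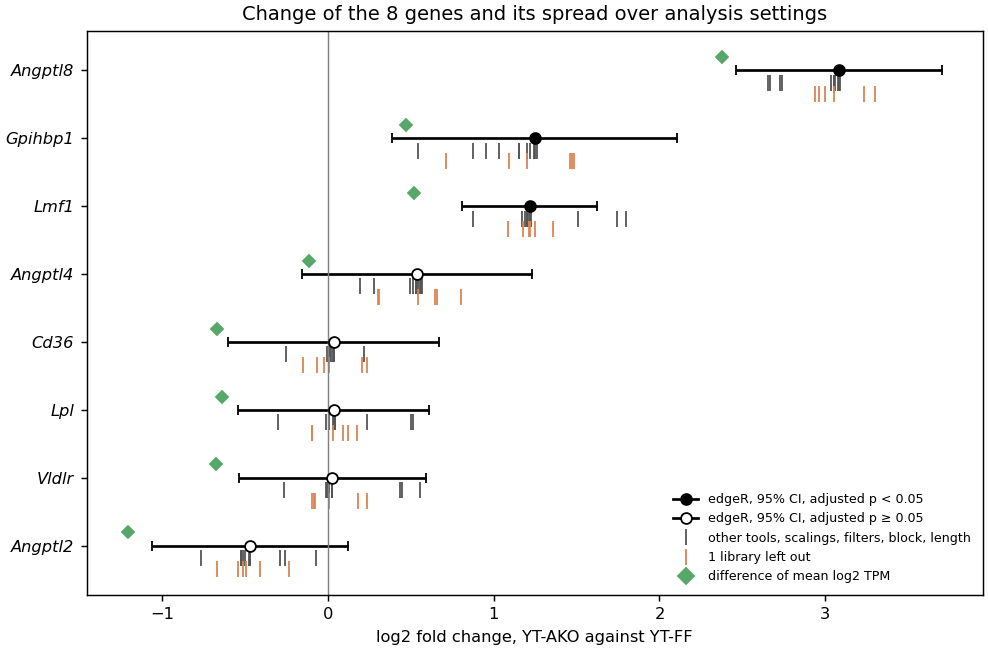
Log2 fold change (YT-AKO minus YT-FF) of the 8 genes, with circles and bars for the edgeR fit and its 95% interval (filled where the adjusted p is under 0.05), ticks for the alternative fits and each library left out, and diamonds for the difference of mean log2 TPM. The edgeR intervals of *Angptl8* (2.46 to 3.70), *Lmf1* (0.81 to 1.62) and *Gpihbp1* (0.39 to 2.11) lie above 0 and the other 5 include 0.

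Levels between genes were compared per length, in TPM. The lengths are exon bases summed over all annotated isoforms, from 865 for *Angptl8* to 13589 for *Lmf1*, so the order depends on them. In mean CPM of YT-FF, *Lpl* (6785) was well above *Cd36* (2171). In YT-FF the order of mean TPM was *Lpl* (2451 ± 380), *Cd36* (2285 ± 345), *Angptl4* (393 ± 120), *Angptl2* (122 ± 12.8), *Gpihbp1* (105 ± 22.9), *Vldlr* (41.2 ± 6.30), *Angptl8* (25.8 ± 4.93) and *Lmf1* (6.26 ± 0.30), each as SD over 3 libraries. The ranges of *Lpl* and *Cd36* overlapped, as did those of *Angptl2* and *Gpihbp1*, and all other neighbours were apart. In the libraries labelled YT-AKO, *Angptl8* (135 ± 35.9 TPM) moved up past *Vldlr* (28.0 ± 12.6) and *Angptl2* (58.7 ± 28.8) to a range that overlapped that of *Gpihbp1* (146 ± 36.2). *Lpl* (1568 ± 190) and *Cd36* (1559 ± 705) still led with overlapping ranges, and *Lmf1* (9.05 ± 1.42) was still the lowest. Of the 8 genes, the lipase and the fatty acid receptor thus remained above the 3 angiopoietin-like genes in every library.

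Ratios of 2 genes within a library do not depend on how libraries are scaled. They are not corrected for the trend of fold changes with gene length. The size of a TPM ratio depends on the summed exon lengths, which are the same in every library, and does not count transcripts. The TPM of *Angptl4* was 8.38, 18.4 and 21.4 times that of *Angptl8* in YT-FF. In the libraries labelled YT-AKO it was 3.22, 2.87 and 2.00 times as high. The *Angptl4* excess over *Angptl8* was thus smaller in every library labelled YT-AKO than in any YT-FF library. The TPM of *Lpl* was 24.3, 24.9 and 21.4 times that of *Gpihbp1* in YT-FF. In the libraries labelled YT-AKO it was 13.2, 7.25 and 13.4 times as high, the lowest in YT-AKO 2. *Cd36* and *Vldlr* kept a similar TPM ratio to each other, at 55.5 ± 2.75 in YT-FF and 56.0 ± 5.08 in the group labelled YT-AKO (SD, n = 3 each).

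Each of the 7 other genes was also set against *Lpl* as a log2 ratio of CPM. *Angptl8* gained 2.91 (SE 0.35), *Lmf1* 1.14 (SE 0.16), *Gpihbp1* 1.11 (SE 0.30) and *Angptl4* 0.52 (SE 0.17) on *Lpl* in the libraries labelled YT-AKO, all without overlap between the groups. Of all tested genes, 20.6% lay higher and 14.2% lower against *Lpl* without overlap. For each of these 4 the two-sided exact permutation p was 0.1, the smallest this design allows, and 0.175 after adjustment over the 7 ratios, so no ratio could pass. *Angptl4*, which overlapped between groups in CPM, did not overlap when set against *Lpl*, at -4.51, -4.19 and -4.03 in YT-FF against -3.85, -3.55 and -3.75. These ratios were not corrected for gene length. With the length correction in the fit on counts, *Angptl4* (log2 fold change 0.53) was close to *Lpl* (0.51). In that fit *Gpihbp1* was at 1.03, *Lmf1* at 1.80 and *Angptl8* at 2.67. *Angptl2* (-0.57), *Cd36* (-0.03) and *Vldlr* (-0.04) overlapped against *Lpl*. Without YT-AKO 2 the last 2 ratios turned to 0.32 and 0.33.

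**Figure D3:**
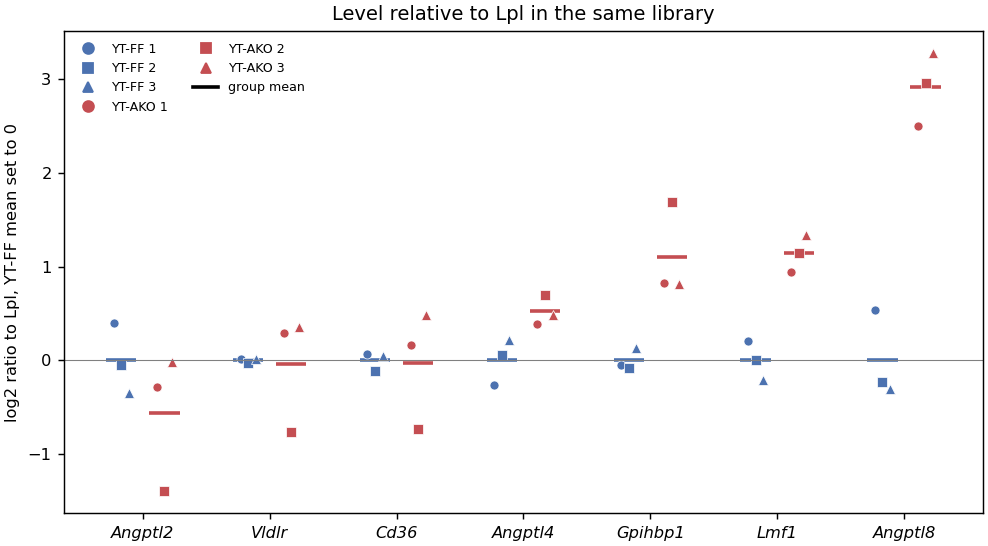
Log2 ratio of each of the other 7 genes to *Lpl* within each library (CPM), with the YT-FF mean of each gene set to 0, YT-FF in blue, YT-AKO in red and lines at the group means. *Angptl8*, *Lmf1*, *Gpihbp1* and *Angptl4* lie higher in all 3 libraries labelled YT-AKO, by mean differences of 2.91, 1.14, 1.11 and 0.52, and the other 3 genes overlap. The ratios are not corrected for gene length.

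The genes were further set against markers of the cells that make them, as log2 ratios to the mean log2 CPM of 6 adipocyte and of 8 endothelial markers. Against the adipocyte markers, *Angptl8* was higher by 2.09 and *Lmf1* by 0.31 in the libraries labelled YT-AKO without overlap. *Lpl* was lower by a log2 ratio of -0.83, *Cd36* by -0.86, *Vldlr* by -0.87 and *Angptl2* by -1.40, also without overlap, while *Gpihbp1* (0.28) and *Angptl4* (-0.30) overlapped. Against these markers 65.7% of all tested genes lay lower and 3.85% higher without overlap. *Cfd* (log2 fold change 2.39) and *Retn* (1.24) raised the marker mean most. *Adipoq* (0.43), *Plin1* (0.36), *Cidec* (0.40) and *Lipe* (0.84) had smaller changes. Against the endothelial markers, *Gpihbp1* was higher by 0.98 without overlap, at -0.51, -0.33 and -0.0045 in YT-FF and 0.35, 1.26 and 0.48 in the libraries labelled YT-AKO. *Lmf1* (1.02) and *Angptl8* (2.79) did not overlap against the endothelial markers either, and the other 5 genes did, beside 18.7% of all tested genes higher and 26.7% lower without overlap. The two-sided exact permutation p of the ratios without overlap was 0.1, or 0.178 adjusted over the 16 marker ratios, so none could pass. With summed marker CPM, which *Cfd* dominates, the adipocyte ratios of *Lmf1* and *Gpihbp1* turned to -0.40 and -0.44.

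Markers of other cells moved as well. Summed CPM of 6 brown or beige adipocyte markers was 157 to 223 in YT-FF and 1603 to 3444 in the libraries labelled YT-AKO, with 5 of 6 markers called higher. Macrophage markers (5 genes, 0 called higher, 1 at an unadjusted p under 0.05, 0 in DESeq2) summed to 981 to 1174 against 1319 to 1659 CPM, and fibroblast markers (5 genes, *Pi16* called higher) to 2006 to 2518 against 2778 to 3877 CPM. Skeletal muscle markers (6 genes, *Acta1* called higher) summed to 117 to 432 against 209 to 3136 CPM, highest in YT-AKO 1. B cell markers (731 to 833 against 472 to 733 CPM) and Schwann cell markers (238 to 303 against 193 to 292 CPM) overlapped. The part of these cells in the differences of the 8 genes was not tested.

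The other genes of circulating triglyceride uptake were read from a list of 45, of which 40 passed the filter. Of these 40, 11 rose and 2 fell in the libraries labelled YT-AKO, beside 12.6% and 9.01% of all genes tested, with a median log2 fold change of -0.0048 beside -0.02. With the replicate block the counts were 0 and 0, and without YT-FF 1 or without YT-FF 2 they were also 0 and 0. Of 8 apolipoproteins 4 were tested and called higher, among them *Apoc4*, which passed the filter only through the libraries labelled YT-AKO and therefore had to differ. *Apoc3*, whose protein inhibits lipolysis by LPL and clearance of remnants, rose by 3.52 on the log2 scale (adjusted p = 0.0166, edgeR), from at most 24 counts in a YT-FF library. *Apoc1*, another apolipoprotein that slows lipolysis and clearance, rose by 2.58 (SE 0.49, adjusted p = 0.0201, edgeR), from 37.3 ± 12.1 to 223 ± 154 CPM. *Apoe*, the ligand of remnant receptors, rose by 1.82 (SE 0.32, adjusted p = 0.0185, edgeR), from 2309 ± 234 to 8149 ± 3281 CPM. *Apoc4* had at most 8 counts in a YT-FF library and at most 62 in one labelled YT-AKO.

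*Apoc2*, which encodes the obligate LPL cofactor, and *Apoa5* had 0 counts in all 6 libraries. For *Apoc2* this is no statement on its level, because 79.5% of its exon bases are shared with other genes and fragments that overlapped several genes were left out. *Apoa1*, *Apob* and *Lipc* did not pass the filter.

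Among the further angiopoietin-like genes, *Angptl1* rose by 1.07 (adjusted p = 0.0398, edgeR) from 4.24 ± 0.54 to 8.92 ± 3.01 CPM, and 16.4% of its exon bases are shared with another gene. *Angptl6* (log2 fold change 1.03, adjusted p = 0.0514, but 0.0213 in DESeq2) and *Angptl7* (-0.49, adjusted p = 0.359) did not pass in edgeR.

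Of 12 genes that fold, sort or cleave LPL or its regulators, 2 rose and 1 fell, beside 12.6% and 9.01% of all genes tested. Their median log2 fold change was -0.13. The fall was *Sorl1*, a sorting receptor that binds LPL, from 188 ± 11.0 to 86.1 ± 23.8 CPM (log2 fold change -1.13, SE 0.21, adjusted p = 0.0201, edgeR). *Sel1l*, which acts with LMF1 in releasing LPL from the endoplasmic reticulum, had -0.49 (adjusted p = 0.0816, 0.0433 in DESeq2) and did not follow *Lmf1* in direction. Of 6 tested lipoprotein receptors and vascular lipases 0 rose (0 at an unadjusted p under 0.05, 0 in DESeq2), and *Lrp8*, a receptor of the same family as *Vldlr*, fell from 10.3 ± 3.01 to 3.77 ± 0.86 CPM (log2 fold change -1.45, adjusted p = 0.0239, edgeR). *Vldlr* itself had 0.03.

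Of 6 fatty acid uptake partners, 3 rose, beside 12.6% of all genes tested, and *Cd36* had 0.03. *Fabp4*, the main fatty acid carrier protein of adipocytes, rose by 1.34 (SE 0.40, adjusted p = 0.0475, edgeR), from 5205 ± 1732 to 13197 ± 6112 CPM. Of 8 transcription factors known to act on these genes, *Nr1h3*, the oxysterol receptor LXRα, rose by 1.06 (adjusted p = 0.0226, edgeR) from 88.4 ± 12.3 to 185 ± 47.8 CPM. *Pparg*, the adipocyte regulator that drives *Lpl*, *Cd36* and *Angptl4*, had 0.29 and did not pass (adjusted p = 0.496).

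**Figure D4:**
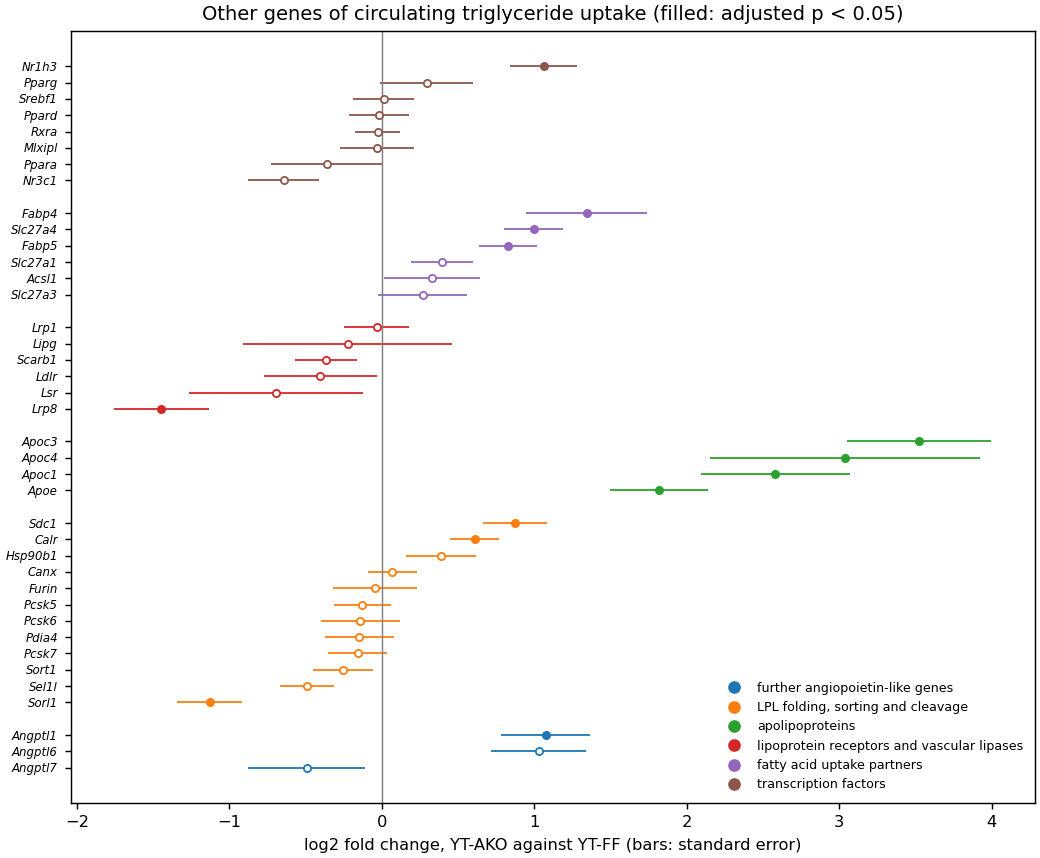
Log2 fold change (YT-AKO against YT-FF, edgeR) of tested genes of circulating triglyceride uptake, coloured by list, with bars for the standard error and filled circles for an adjusted p under 0.05. The 4 tested apolipoproteins all lie above 0, *Apoc4* having passed the filter only through YT-AKO, and the 6 tested receptors and lipases have a median of -0.39.

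Genes with the most similar profile over the 6 libraries were looked for among 10336 genes of at least 10 CPM on average, by the root mean square difference of mean-centred log2 CPM. *Angptl8* was nearest to *Chchd10* and 1110008P14Rik, at distances of 0.320 and 0.326, larger than those of the other members. Such a distance also grows with the size of a change, which was largest for *Angptl8*. *Lmf1* was nearest to *Ctsk* (0.0560) and *Bckdk* (0.0582), and *Gpihbp1* to *Gm10039* (0.0821) and *Atp5g1* (0.0887). *Cd36* and *Vldlr* shared *Bcl2l13* as a near neighbour, at 0.0601 and 0.0426, beside *Ermp1* (0.0563) for *Cd36* and *Slc7a8* (0.0463) for *Vldlr*. *Lpl* was nearest to 1110059E24Rik (0.0670) and *Ppm1d* (0.0849), *Angptl4* to *Rgcc* (0.121) and *Kiz* (0.130), and *Angptl2* to *Taok2* (0.0385) and *Tgfbrap1* (0.0471).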

How the data were processed

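Bulk RNA-seq of scWAT was analysed in 3 mice of each genotype, as named in the labels. The authors used HISAT2 (mm10) for alignment of paired ends and featureCounts 2.0.1 for counting on GENCODE vM25 exons, without strand, with multi-mapped fragments and those on more than 1 gene left out. The deposited values are raw counts per gene. All measured columns were used, so the number of unused columns was 0. Symbols of 55141 of 55401 identifiers were found in the annotation used here.

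Counts were tested in R 4.3.3 with edgeR 4.0.16 (TMM, filterByExpr with minimum count 10 and minimum total 15, quasi-likelihood F-test, Benjamini-Hochberg adjustment over 16807 genes, biological coefficient of variation 0.288). CPM were scaled by TMM factors, and for TPM counts were divided by summed exon lengths. Ratios used log2 of CPM plus 0.5 and exact permutation tests. DESeq2 1.42.0 and limma-voom 3.58.1, other normalizations and filters, a replicate block, a length correction (spline with 6 degrees of freedom) and leaving out each library were the alternatives. The length correction without YT-AKO 2 and the TPM difference were added after the data were seen. The fits were tested on simulated data. All 8 genes, called genes of the uptake lists (at most 6 a direction, beside genes a member is compared with), overlapping genes and nearest profiles were named. A gene of these lists is not reported here. The genes, lists and tests were chosen with earlier results of these data known. Intervals and floors cover no error beyond that of the libraries and counts, since fragments carry no molecular identifiers.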

Additional observations from a re-analysis of the deposited data

How the results depend on the processing

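*Angptl8*, *Lmf1*, *Gpihbp1*, *Angptl4* and *Angptl2* kept their direction over 17 settings of the fit on counts, with log2 fold changes of 2.66 to 3.30, 0.88 to 1.80, 0.54 to 1.48, 0.19 to 0.80 and -0.77 to -0.07. TPM, which moves every log2 difference by -0.68, put *Angptl4* at -0.11. *Lpl*, *Cd36* and *Vldlr*, never called, had no stable sign. They were -0.0097, -0.0043 and -0.013 with upper-quartile normalization, -0.30, -0.26 and -0.26 with library totals alone (which moved the median of all genes to -0.34) and -0.64, -0.67 and -0.68 under the same TPM shift, and *Vldlr* was -0.0035 with at least 10 counts in every library. Leaving out each library in turn gave -0.10 to 0.18 for *Lpl*, -0.15 to 0.23 for *Cd36* and -0.10 to 0.23 for *Vldlr*, and log2 ratios of -0.29 to 0.32 for *Cd36* and -0.24 to 0.33 for *Vldlr* against *Lpl* and of -0.45 to 0.21 and -0.40 to 0.21 against endothelial markers, these 4 ratios being highest without YT-AKO 2. With summed marker CPM the adipocyte ratios of *Gpihbp1* and *Lmf1* were -0.44 and -0.40. The 3 members called higher were 1 with the replicate block and 0 to 3 with a library left out, 0 without YT-FF 1 or YT-FF 2. By the stricter rule the 1 member was 3 with DESeq2, 3 with no filter, 0 with the block, 0 with block and length correction, 2 with the length correction without YT-AKO 2, and 0 to 2 with a library left out (2 without YT-AKO 2, otherwise 0). The 11 uptake genes called higher were 5 with library totals, 0 with the block, 7 with the length correction, 1 with block and length correction and 0 to 10 with a library left out (0 without YT-FF 1 or 2, 6 without YT-FF 3 or YT-AKO 3). The 2 called lower were 4 with DESeq2, 4 with library totals, 0 with the block, 1 with the length correction, 0 with both and 0 to 3 with a library left out (0 without YT-FF 1 or 2, 1 without YT-FF 3). The causes were not tested. Same-numbered libraries correlated in their deviations from the group means at 0.126, -0.118 and -0.0893. Only YT-FF 1 and YT-AKO 1 correlated best with their own number. So few correlations cannot tell whether the numbers pair the libraries. With 3 libraries a group, the 95% intervals of *Lpl*, *Cd36* and *Vldlr* still held changes beyond 0.5 on the log2 scale.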
